A study of Rattus norvegicus with 4 samples.

Results

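The 10 genes examined here build the core of autophagy, the route by which a cell wraps part of its cytoplasm, a damaged organelle or an invading particle in a double membrane and delivers it to the lysosome. They are Map1lc3a, Map1lc3b, Gabarap, Gabarapl1, Gabarapl2, Becn1, Atg5, Atg7, Atg12 and Ulk1, chosen by name from 16581 genes with a symbol on the array. Through the RefSeq accession that each array probe carries, they were matched to 15 probes of 45598, printed in 33 spots per array. The RNA came from NR8383, a rat macrophage line established by lung lavage, after 20 passages. All 4 samples were exposed to 9.25 µg/mL of NiZnFe2O4, an oxide that holds nickel, zinc and iron by its formula, for 4 h, and are biological replicates per the design text, with 1 one-colour Cy3 array each. The design also names cells without the particles. Arrays of such cells were not analysed here, so no value below shows a change with exposure and no test between groups was made.

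In autophagy the kinase ULK1 starts the membrane, the lipid kinase complex around Beclin 1 marks it, and ubiquitin-like conjugation then couples the small Atg8-family proteins, LC3 and GABARAP, to its lipid. ATG7 activates both ubiquitin-like systems, and the ATG12-ATG5 conjugate, held by ATG16L1, directs the coupling of LC3. In macrophages the same conjugation machinery also decorates phagosomes that hold ingested material. The lipid coupling of LC3, the usual measure of autophagy, takes place on the protein and was not measured by these arrays.

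Of the 58717 spots for rat transcripts per array, 21812 to 24981 were flagged well above background, the scanner software's call that a spot is brighter than its surroundings by more than their noise. No such spot was saturated. Levels are given as the log2 processed signal minus the 75th percentile of all probes on that array, so 0 marks that percentile. The brightness of a probe depends on its sequence, so levels are compared between arrays and not between genes. Macrophage markers were present: 9 of 10 passed on all 4 arrays, among them Cd68, Lyz2, Csf1r and Spi1. Marco, a scavenger receptor of alveolar macrophages, did not. Of 4 lung epithelial, 2 lymphocyte and 2 neutrophil markers with a probe none passed on all 4 arrays. Of 4 fibroblast and endothelial markers only Cdh5 did.

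Of the 10 autophagy genes 8 (80%) passed on all 4 arrays with at least 1 probe, where 38.7% of all genes with a symbol did. The remaining genes, Atg5 and Atg12, passed on no array, as did 51.4% of all genes. All 5 members of the Atg8 family passed, as did Becn1, Atg7 and Ulk1. In bulk RNA of this kind, fewer cells that hold a transcript and less transcript per cell cannot be told apart.

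**Figure D1:**
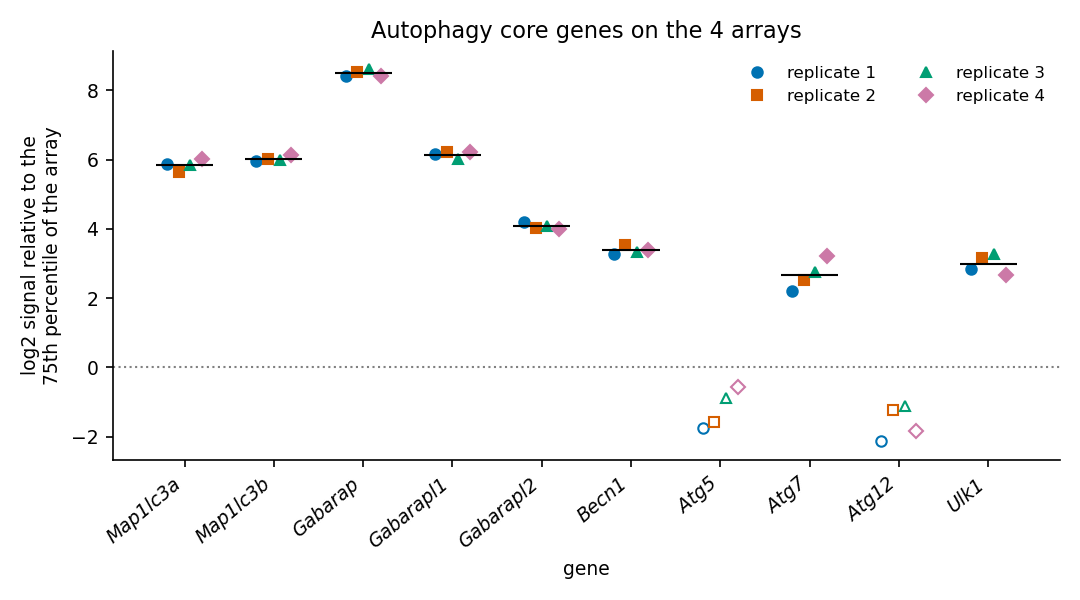
Log2 level of each autophagy gene relative to the 75th percentile of its array (y axis) for the 10 genes (x axis); each symbol is 1 array, black lines are means, and open symbols mark genes not well above background. The 4 arrays of Gabarap sit between 8.40 and 8.60, those of Atg7 spread from 2.20 to 3.22, and Atg5 and Atg12 lie below 0 on every array.

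Ulk1, the kinase that receives nutrient and energy signals and starts autophagosome formation, stood at log2 levels of 2.84, 3.16, 3.28 and 2.66 on replicates 1 to 4, a mean of 2.98 ± 0.29 (SD, n = 4). Replicate 4 was the lowest and replicate 3 the highest, 1.54-fold apart. Becn1 encodes Beclin 1, the scaffold of the lipid kinase complex and a partner of BCL2. Its levels were 3.28, 3.54, 3.33 and 3.39, a mean of 3.38 ± 0.11 (SD, n = 4), with replicate 2 the highest and 1.19-fold between the extremes.

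The LC3 genes were steady between replicates under this scaling. Without scaling the SD was 0.36 for Map1lc3a and 0.34 for Map1lc3b, and with a normexp background correction 0.21 and 0.19. Map1lc3a, which encodes LC3A, stood at 5.88, 5.63, 5.85 and 6.02, a mean of 5.85 ± 0.16 (SD, n = 4), with replicate 2 the lowest. Map1lc3b, which encodes LC3B, the form most often followed as an autophagosome marker, stood at 5.95, 6.01, 5.99 and 6.14, a mean of 6.02 ± 0.08 (SD, n = 4). Its extremes lay 1.14-fold apart. Map1lc3b had 4 probes, and all of them passed on all 4 arrays. The SDs of the other 3 probes were 0.11 for A_44_P1137208, 0.12 for A_44_P1152843 and 0.16 for A_44_P1370656. On every probe replicate 4 had the highest level, by 0.05 to 0.19 above the next array. Over the 6417 genes above background, the median deviation from a gene's own mean was -0.06, -0.01, 0.02 and 0.06 on replicates 1 to 4. Replicate 4 was thus the highest for the median gene too, but by less than the deviations of 0.10 to 0.20 of the Map1lc3b probes there. Of the 8 members above background 5 lay above their own mean on replicate 4. Whether the pattern of Map1lc3b follows the general one was not tested.

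The GABARAP genes, whose products act mainly late, when the membrane closes and meets the lysosome, varied as little under this scaling. Gabarap stood at 8.41, 8.53, 8.60 and 8.40, a mean of 8.49 ± 0.10 (SD, n = 4). Gabarapl1 stood at 6.15, 6.20, 6.002 and 6.22, a mean of 6.14 ± 0.10 (SD, n = 4), with replicate 3 the lowest. Gabarapl2, also known as GATE-16, stood at 4.21, 4.01, 4.08 and 4.00 on its brighter probe, a mean of 4.08 ± 0.10 (SD, n = 4). Its other probe, A_64_P155645, gave 3.62, 3.75, 3.97 and 4.27, with an SD of 0.29. The probes of Gabarapl2 therefore ran opposite ways, replicate 1 being the highest on one and the lowest on the other. Probe sequences were not used here, so binding of a probe to another member of this family was not tested.

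Atg7, the activating enzyme for both conjugation systems, had the largest SD of the 8 members above background under this scaling, but not without scaling, with a normexp background correction or with the local shift described below removed. Its levels were 2.20, 2.52, 2.75 and 3.22, a mean of 2.67 ± 0.43 (SD, n = 4), with the scaled signal of replicate 4 at 2.03 times that of replicate 1. Deviations of neighbouring spots are given beside it. Within 5 rows and 5 columns, the median deviation of an array from the other 3 was -0.30 on replicate 1, -0.17 on replicate 2, 0.17 on replicate 3 and 0.38 on replicate 4, over 21 neighbouring probes printed once. With this local shift subtracted from every spot of the arrays, the SD of Atg7 was 0.21, that of Gabarap 0.16 in place of 0.10, that of Map1lc3a 0.22 in place of 0.16 and that of Ulk1 0.30. Its part in the spread of Atg7 was not tested. The second Atg7 probe, A_44_P1105100, designed on the predicted transcript XM_008763239, was not well above background on any array, and its signals, 2.91 to 3.84 intensity units, were about as large as their own error estimates, 2.93 to 3.86. With every probe of a gene required to pass, 7 members passed, against 33.2% of all genes.

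Atg5 and Atg12, whose protein products are joined by a covalent bond, each had 1 probe and 1 spot per array. The processed signal of Atg5 was 12.3, 10.998, 12.7 and 16.7 intensity units on replicates 1 to 4, which is 2.83 to 3.91 times the software's error for that spot. The lowest signal flagged well above background on these arrays was 16.3, 13.6, 17.3 and 16.6, so Atg5 on replicate 4 lay at that edge without carrying the flag. Atg12 gave 9.52, 14.1, 10.9 and 6.90 intensity units, 1.75 to 3.99 times its error, and lay at that edge on replicate 2. Without the flag, both genes have only an upper bound and no level.

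Both spots were still brighter than nearly all spots made to bind nothing. Each array held 308 negative control spots, whose median background-subtracted signal lay between -3.83 and -2.57 intensity units. The background-subtracted signal of Atg5 was above 306, 308, 307 and 308 of them on replicates 1 to 4, and that of Atg12 above 306, 308, 307 and 307. By the looser flag, positive and significant against background, Atg5 and Atg12 passed on all 4 arrays, and so did all 10 members, against 50.9% of all genes. Of the 8529 genes well above background on no array, 645 (7.56%) met the looser flag on all 4, Atg5 and Atg12 among them.

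**Figure D2:**
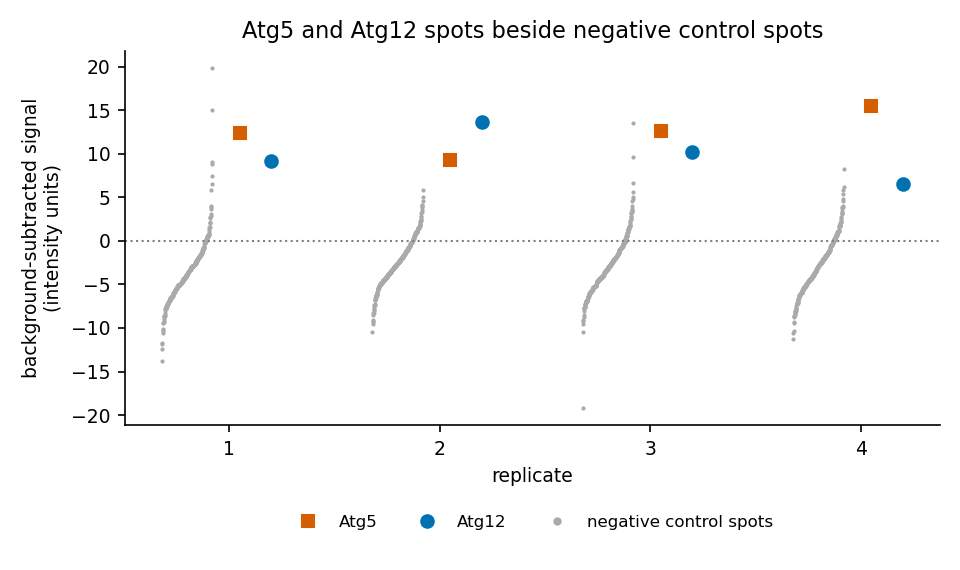
Background-subtracted signal in intensity units (y axis) of the Atg5 spot (squares), the Atg12 spot (circles) and the 308 negative control spots (grey, sorted) on each replicate's array (x axis). The Atg5 and Atg12 spots lie above at least 306 negative control spots on every array, at 6.48 to 15.5 units.

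The printing of some probes in 10 spots showed how far spots of 1 probe differed within an array. The Map1lc3b probe A_44_P1137208 gave 1346 to 1687 intensity units over 9 of its spots on replicate 2, and the Gabarapl1 probe A_44_P1007933 gave 2198 to 2627 over 9. After outlier spots were left out, the SD between spots of an array was 0.03 to 0.11 log2 units for the Map1lc3b probe and 0.02 to 0.08 for the Gabarapl1 probe. The SD between arrays of the spot means was 0.11 and 0.10. The first is a spread of single spots and the second a spread of means of 7 to 9 spots from separate samples, so they are not the same quantity.

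A spot of each probe stood apart on replicate 2. The Map1lc3b spot at row 209 and column 80 gave 749 intensity units there, and its 15 neighbours were shifted by -1.14 log2 units against the other arrays. The Gabarapl1 spot at row 152 and column 89 gave 1720 units, and its 26 neighbours were shifted by -0.63. Both spots carried the software's outlier flag on that array and also on replicate 4, where they gave 1163 and 1545 units. On both arrays they were left out, so the values above do not contain them there. The Atg5 spot, at row 161 and column 95, had neighbours shifted by 0.29, -0.24, -0.08 and 0.01 on replicates 1 to 4.

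**Figure D3:**
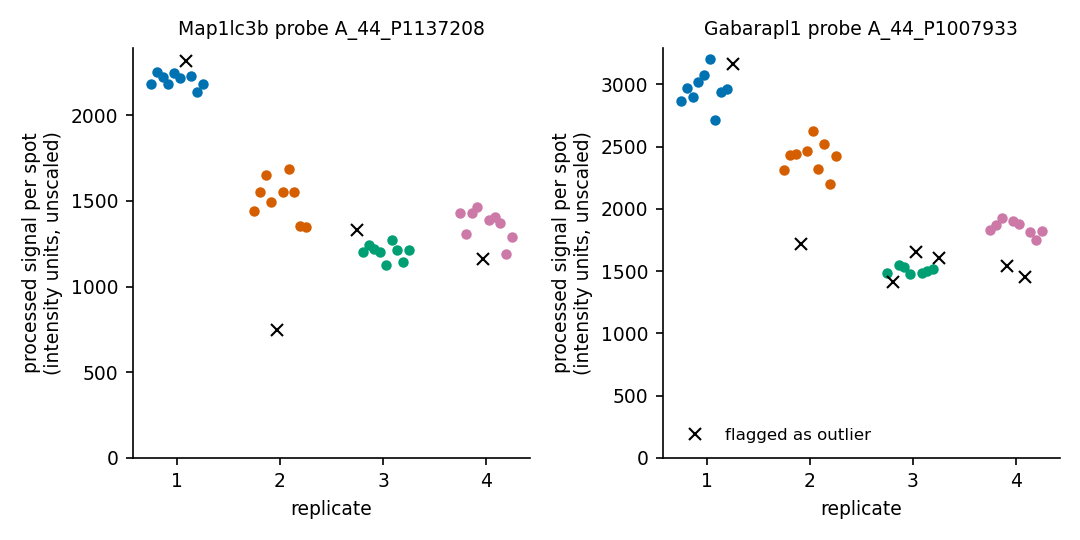
Processed signal in intensity units, unscaled, of each of the 10 spots (points) of the Map1lc3b probe A_44_P1137208 (left) and the Gabarapl1 probe A_44_P1007933 (right) on the 4 replicates (x axis), with flagged outlier spots as crosses. On replicate 2 the crosses lie at 749 and 1720 units, below all other spots of their probe on that array.

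Across the 8 members above background the median SD was 0.11 log2 units, against 0.23 over the 6417 genes above background that had a value on every array. The SD was below that of the median gene for 6 members, where 50% of genes fall by construction. These were Becn1 and the 5 Atg8-family genes. Among all genes above background, the share with a smaller SD was 4.74% for Map1lc3b, 7.99% for Gabarapl2, 8.66% for Gabarap, 8.90% for Gabarapl1, 11.8% for Becn1 and 28.3% for Map1lc3a. It was 67.3% for Ulk1 and 89.7% for Atg7. The dimmer Gabarapl2 probe, with its SD of 0.29, lay above the median gene. Single SDs from 4 arrays were imprecise: leaving out 1 replicate gave 0.04 for Gabarapl2 (without replicate 1), 0.04 for Gabarapl1 (without replicate 3) and 0.28 for Atg7 (without replicate 4). Without replicate 2 the SD was 0.06 for Becn1 and 0.10 for Map1lc3a. For Map1lc3b it was 0.08 without replicate 1 and 0.09 without replicate 3. Without replicate 2 it was 0.04 and without replicate 4 it was 0.13. The last 2 values come from probe A_44_P1152843, which then had the highest mean, so they also hold a change of probe. Without any 1 replicate, 6 members were still below the median gene. The typical SD also differed with signal: over the 375 genes within 0.5 log2 units of Map1lc3b the median SD was 0.18, and over the 1080 genes within that distance of Atg7 it was 0.23.

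The difference from the median gene was lost without scaling and turned with normexp. Without scaling the median SD was 0.37 over the members and 0.38 over all genes above background, and 4 members were below the median gene. With the normexp background correction on the raw spot signals the values were 0.24 and 0.19, and 2 members were below. Atg7 moved the other way, with SDs of 0.22 without scaling and 0.23 with normexp. With the other scalings, the quantile method and the percentile over detected probes, 6 members were below the median gene.

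**Figure D4:**
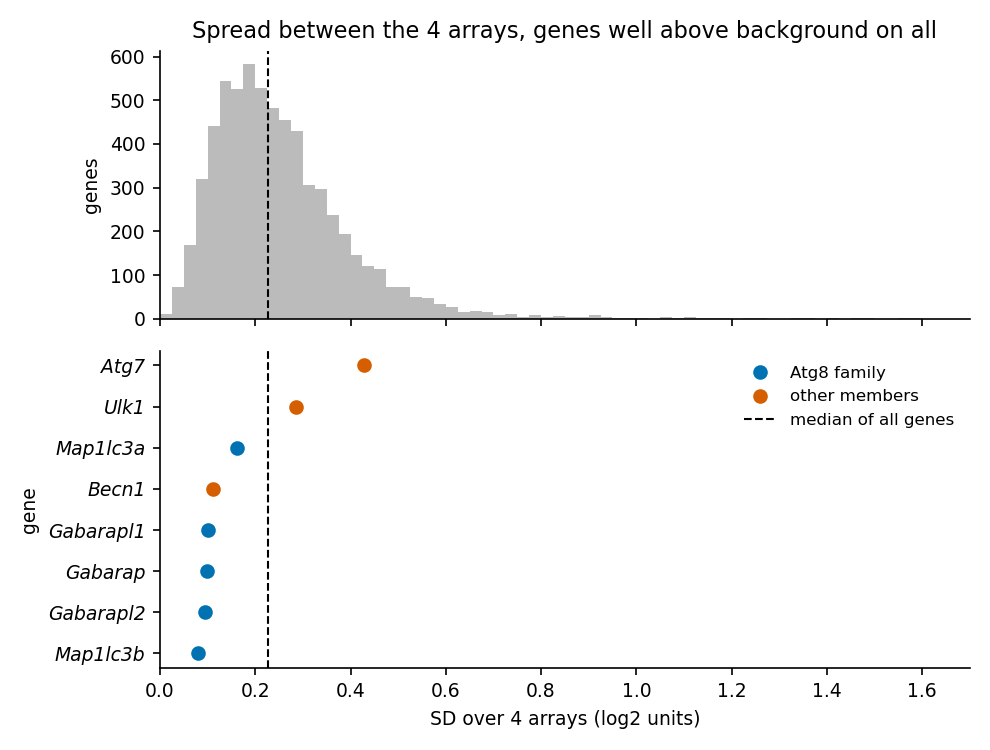
Top, number of genes (y axis) by SD over the 4 arrays in log2 units (x axis) for the 6417 genes above background; bottom, the SD of each autophagy gene above background, with the Atg8 family in blue and other members in orange. The dashed line is the median of all genes, 0.23; Becn1 and the 5 Atg8-family genes lie to its left, at 0.08 to 0.16, and Ulk1 and Atg7 to its right, at 0.29 and 0.43.

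The rest of the pathway was read from a list of 60 further autophagy genes, of which 55 had a probe with a symbol. Of these 38 (69.1%) passed on all 4 arrays, where 38.7% of all genes did. A further 6 passed on 1 to 3 arrays, where 9.85% of all genes did, and 11 on none. The median SD of the 38 genes was 0.21, near the 0.23 of all genes above background. No probe was matched to Pik3r4, Rubcn, Atg2b, Atg4b or Epg5.

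By role the shares below can be read against the 38.7% of all genes that passed on all 4 arrays; differences between roles were not tested. Of 4 initiation genes 1 passed (25%), Atg101, a stabilising subunit of the ULK1 complex, at a level of 3.71 ± 0.37 (SD, n = 4). The related kinase gene Ulk2 passed on no array, nor did Atg13 and Rb1cc1, which encode the other subunits of that complex. In the lipid kinase complex of Beclin 1, Pik3c3, its catalytic subunit, stood at 2.64, 2.69, 2.43 and 2.51, a mean of 2.57 ± 0.12 (SD, n = 4). Atg14, which brings the complex to the forming autophagosome, stood at 0.62, 1.12, 0.995 and 1.11, with replicate 1 the lowest, a mean of 0.96 ± 0.24 (SD, n = 4). Uvrag, which takes its place in the complex on endosomes, passed on no array.

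Of 8 further conjugation genes with a probe 5 (62.5%) passed on all 4 arrays and 3 on some. Atg3, which hands LC3 to its lipid, stood at 3.39, 3.30, 3.19 and 3.14, a mean of 3.26 ± 0.11 (SD, n = 4), and Atg16l1, the partner of the ATG12-ATG5 conjugate, at 2.66, 2.82, 2.71 and 3.03, a mean of 2.81 ± 0.16 (SD, n = 4). Atg10, which hands ATG12 to ATG5, passed on 1 of 4 arrays. The LC3-trimming protease genes Atg4a and Atg4c passed on 2 of 4 each, and Atg4d on all. Of 9 genes for lipid transfer and membrane supply 7 (77.8%) passed, among them Atg9a, the membrane protein of the seed vesicles, at 2.91 ± 0.15 and the LC3 recruitment adaptor gene Wipi2 at 2.61 ± 0.22 (SD, n = 4 each).

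Cargo receptors link LC3 to what is to be degraded, and 9 of 11 (81.8%) passed on all 4 arrays, where 38.7% of all genes did. Sqstm1, which encodes the ubiquitin-binding receptor p62, stood at 7.67, 8.17, 8.16 and 8.40, a mean of 8.10 ± 0.31 (SD, n = 4), with replicate 1 the lowest. Ncoa4, the receptor that carries the iron store ferritin to the lysosome, stood at 4.72, 4.49, 4.39 and 4.15, a mean of 4.44 ± 0.24 (SD, n = 4). The mitophagy receptor gene Bnip3l stood at 4.35 ± 0.32 and Optn at 3.18 ± 0.27 (SD, n = 4 each). Fundc1, another mitophagy receptor gene, passed on no array.

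Of 6 genes for fusion with the lysosome 4 (66.7%) passed, among them Rab7a, the GTPase of late endosomes, at 1.17 ± 0.14 (SD, n = 4). Stx17, the autophagosome SNARE, passed on no array, whereas its partner genes Snap29 and Vamp8 passed on all 4. Of 12 control genes 8 (66.7%) passed. Tfeb, the transcription factor of lysosome and autophagy genes, stood at 1.86, 1.65, 2.19 and 2.34, a mean of 2.01 ± 0.31 (SD, n = 4), and its relatives Tfe3 and Mitf also passed. Prkaa1, a catalytic subunit of the energy sensor AMPK, stood at 2.35 ± 0.35 (SD, n = 4), while its alternative Prkaa2 passed on no array. Mtor, the kinase that restrains ULK1, passed on 1 of 4 arrays, and its complex partner gene Rptor on all 4.

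**Figure D5:**
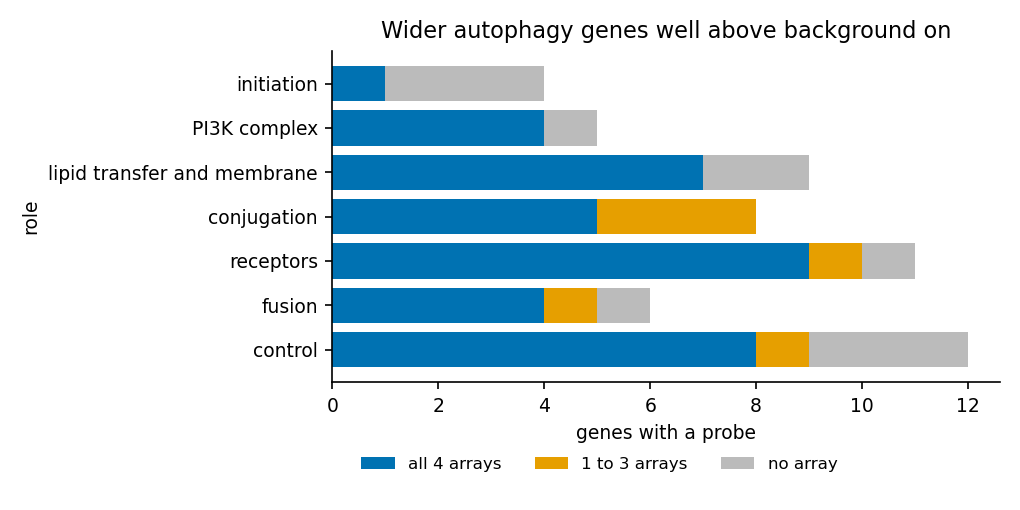
Number of further autophagy genes with a probe (x axis) by role (y axis), coloured by the number of arrays on which they were well above background. On all 4 arrays 38 of the 55 genes passed (69.1%), where 38.7% of all genes did; roles were not tested against each other.

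Start regions of the members were compared next, because the TFEB family found above acts through a known DNA element. RefSeq start regions of assembly GRCr8, from 250 bases before the start to 50 after, were held for 8 members and not for Map1lc3a and Becn1. They were searched on both strands for 8 motifs and set beside 33469 such regions. The arm of the CLEAR element of TFEB, GTCACGTG, was in none of the 8, and is in 1.85% of all regions. The E-box within it, CACGTG, was in 1 member, Atg5, and is in 6.42% of all. The GC box GGGCGG was in 6 members and is in 33.1% of all, and the cyclic AMP element TGACGTCA was in Atg5 and is in 1.83% of all. CCAAT was in Atg7 (37.5% of all), TATAAA in Gabarapl1 (14.2%) and the ETS motif CCGGAAG in Gabarapl2 (8.75%). The antioxidant motif TGACTCAGC (0.415%) was in none. A match here is a description of letters and not evidence that a factor binds, and no test was made.

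Atg5, which was not well above background, and Gabarapl2, which was, are shown for the region just before their starts, chosen after the matches were seen, because matches to several motifs lie close together there. Capitals mark the matches, and in Atg5 the E-box and a GC box share 1 letter. The Atg5 region is chr20:49380715-49380844 and the Gabarapl2 region chr19:56819706-56819835, both on the plus strand of GRCr8 and written 5′ to 3′.
Atg5: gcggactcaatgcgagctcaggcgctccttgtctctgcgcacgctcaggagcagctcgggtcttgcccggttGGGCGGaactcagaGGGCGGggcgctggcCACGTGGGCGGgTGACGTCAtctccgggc
Gabarapl2: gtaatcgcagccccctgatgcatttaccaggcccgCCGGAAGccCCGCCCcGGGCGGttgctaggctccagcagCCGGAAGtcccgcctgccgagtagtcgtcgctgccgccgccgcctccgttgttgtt
Counted with the start base as 0, the Atg5 E-box lies at -19 to -14 and its cyclic AMP element at -7 to 0. The ETS motifs of Gabarapl2 lie at -85 and -46. CG pairs, which are frequent in the starts of widely expressed genes, numbered 28 in Atg5 and Map1lc3b, 26 in Gabarap, 23 in Gabarapl2, 21 in Gabarapl1, 16 in Atg12 and 41 in Ulk1, against a median of 7 over all regions. Atg7 was apart with 2. Whether this count goes with detection on the arrays was not tested.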

How the data were processed

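The authors deposited linear intensities from Agilent Feature Extraction, version 11.0.1.1 in the submitters' processing notes. They comprise a processed signal and its error, a background-subtracted signal, and raw median signals of spot and local background; spot flags are deposited as 0 or 1. The headers name 1 slide and the design build rn4, so no array coordinates are given. Control spots (4259 per array) and outlier-flagged spots (491 to 828) were left out, spots of a probe were averaged as log2 values, and a probe passed when at least 0.5 of its spots did. Accessions without version were matched to RefSeq GRCr8, naming 21109 of 45598 probes. A gene passed if any probe did on all 4 arrays, and its probe of highest mean gives its level. The files hold no mean signal, so normexp (limma 3.58.1, R 4.3.3, offset 50) used the median signal. All other steps used Python 3.11.15, scipy 1.17.1, numpy 2.4.6 and pandas 2.3.3. Of these, only the averaging of spots, the percentile scaling and the step from probes to genes were tested on simulated data. The simulated data had no outlier spots and 1 probe per gene, so removal of outlier spots and the choice among probes were not tested. Precision is limited by the number of arrays. All members were named with their values; further genes were named from a fixed list by role, and Atg101, Uvrag, Atg10, Atg4a, Atg4c, Atg4d, Fundc1, Snap29, Vamp8, Tfe3, Mitf, Prkaa2 and Rptor to spell out counts, after their values were seen. The members, lists and motifs were chosen with earlier results of these data known. A likeness to other genes over 4 replicates is not given.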

Additional observations from a re-analysis of the deposited data

Results flagged for a closer look

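Of 46 autophagy genes above background, 8 of them members, 1 had an array apart from the other 3 by Dixon's test at its 95% critical value for 4 samples. This was Atg16l2, a relative of Atg16l1, at 2.001, 1.98, 1.94 and 2.48, with replicate 4 the highest and a ratio of 0.882. Chance gives about 1 in 20 such values, and 4.91% of all genes above background exceeded the critical value. The highest ratio among the members was 0.672.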

How the results depend on the processing

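The count of 8 members above background was 8 with 3 of 4 arrays and without any 1 replicate, 7 with every probe required and 10 with the looser flag. For the wider list the count of 38 ranged from 34, with every probe required, to 46, with the looser flag, and was 38 or 39 without any 1 replicate. The share of all genes moved as well, from 38.7% to 41.5% with 3 of 4 arrays. It was 33.2% with every probe required and 50.9% with the looser flag. The median SD of the members, 0.11, moved to 0.37 without scaling and to 0.24 with normexp, where 2 members instead of 6 were below the median gene; the cause was not tested. It was 0.11 to 0.13 without any 1 replicate. Of 88 single-gene SDs under other settings 25 moved by more than the approximate standard error of an SD. The setting without a filter on dim probes could not move them. Neither could the mean of all probes for members with 1 probe. Of 56 levels 2 moved by more than their SD, both with the mean of all probes: Map1lc3b to 5.45 and Atg7 to -0.22. Leaving out 1 of 4 arrays cannot move a mean that far on the same probe, and members with 1 probe cannot move with the mean of all probes. The 25 of 88 and 2 of 56 are therefore no measure of stability. Removing the local shift was chosen after seeing the data. No paired analysis was possible because there is 1 group, and slide as a block was not run because there is 1 slide. Dim probes limit Atg5 and Atg12 to an upper bound.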

Other observations

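Among further autophagy genes, chosen after their values were seen, the spread differed widely. Calcoco1, a cargo receptor gene, stood at 2.95, 2.97, 2.89 and 2.92, with an SD of 0.03, and 0.514% of genes above background had a smaller one. Ambra1, a regulator of Beclin 1, stood at 0.70, 1.93, 1.85 and 1.11, with an SD of 0.60 that exceeded 97.4% of genes. Vmp1, a membrane scramblase needed for autophagosome growth, stood at 4.97 ± 0.08 (SD, n = 4).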
